A study of Mus musculus with 20 samples.

Results

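Onecut transcription factors bind DNA through a single cut domain beside a homeodomain, and mammals have 3 of them, Onecut1, Onecut2 and Onecut3. The genes were taken from the cerebellar count table by their Ensembl identifiers, and 2 of the 29200 genes in it were members: Onecut2 (ENSMUSG00000045991) and Onecut3 (ENSMUSG00000045518). Onecut1 was not analysed here. Onecut2 was chosen because, of all genes tested, it had the largest rise in 12-month-old 304Q/304Q mice over WT/WT mice of that age, so that this difference is given as a description with no test.

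The study compared WT/WT mice with 304Q/304Q mice, which carry on both alleles of the murine Atxn3 gene an interrupted polyglutamine repeat of 304 units, inserted by zinc-finger nucleases and left under the control of the gene's own regulatory elements. It models spinocerebellar ataxia type 3, and all 304Q/304Q mice descend from 1 founder line on a C57BL/6 background (C57BL6/N in the sample labels). The cerebellum of 5 male mice of each genotype was sequenced at 2 months and of 5 others at 12 months, 20 libraries in all, from polyA-enriched mRNA. The labels name the wild-type alleles as those of ataxin-2, whereas the study's methods describe Atxn3.

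Onecut factors are best known from the liver and pancreas, where Onecut1 (hepatocyte nuclear factor 6) switches on genes of hepatocytes and of endocrine precursors. In the nervous system they are expressed mainly in newly formed neurons of the retina, spinal cord, hindbrain and midbrain, and they fall in most neurons as these mature. Onecut2 messenger RNA is also a textbook target of miR-9, a microRNA abundant in the brain.

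Between 11385380 and 27636687 reads per mouse were counted on genes. Levels are given as CPM, the reads of a gene relative to its library total after scaling for composition, and comparisons between genes as reads per kilobase of exon on the same scale (RPKM). A gene was called when its adjusted p-value from edgeR's quasi-likelihood test was at most 0.05 and its log2 fold change at least 0.5 in size, with the 12153 genes that reached 50 counts per library on average in the test. Of these, 3.09% were called between the genotypes at 12 months and 0.00823% at 2 months.

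Onecut2 lies on the forward strand of chromosome 18 (chr18:64340020-64400987, GRCm38), with no other annotated gene over it, and its exons span 16234 bases. In the 5 WT/WT mice of 2 months it stood at 2.73, 2.73, 3.63, 1.05 and 3.35 CPM, from 34, 37, 45, 14 and 51 reads. In the 304Q/304Q mice of the same age it stood at 3.40, 3.93, 4.25, 3.71 and 4.71 CPM, from 94, 52, 58, 52 and 76 reads. These groups overlapped in 1 of their 25 pairs, since the highest WT/WT mouse lay above the lowest 304Q/304Q mouse.

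At 12 months, the WT/WT mice had 2.66, 2.79, 1.05, 2.05 and 2.66 CPM of Onecut2, from 34, 40, 14, 29 and 34 reads. The 304Q/304Q mice of 12 months had 18.5, 22.6, 20.1, 27.5 and 25.1 CPM, from 255, 290, 229, 358 and 355 reads. Each of these 5 mice lay above all 15 others, and the lowest of them was 6.62 times the highest WT/WT mouse of its age. For 3.51% of all genes tested, the 304Q/304Q values at 12 months all lay above the WT/WT values.

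**Figure D1:**
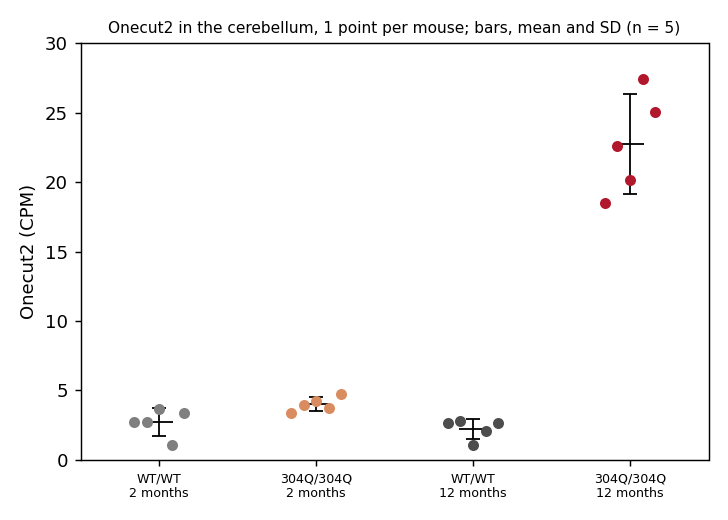
Onecut2 level (y axis, CPM from 0) in each of the 20 mice, by genotype and age (x axis), with the mean and SD of each group of 5. The 12-month-old 304Q/304Q mice sit between 18.5 and 27.5 CPM, and the other 15 mice between 1.05 and 4.71 CPM.

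The mean level of Onecut2 in 12-month-old 304Q/304Q mice was 22.75 ± 3.63 CPM (SD, n = 5), against 2.24 ± 0.725 CPM in WT/WT mice. The log2 fold change was 3.34 with an SE of 0.230, which corresponds to a 10.1-fold difference. Among the genes that followed it were Kcnb2, a voltage-gated potassium channel, with a log2 fold change of 1.49, and Miat, a long noncoding RNA, with 1.45. Onecut2 was thus followed at a distance in the contrast that was used to choose it.

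The 2-month-old mice did not enter that choice. Their means were 4.0 ± 0.505 CPM in 304Q/304Q and 2.70 ± 1.0 CPM in WT/WT mice (SD, n = 5), and the log2 fold change was 0.56 with an SE of 0.238. By edgeR's quasi-likelihood test this did not pass (adjusted p = 0.86, unadjusted p = 0.0276). Onecut2 reached the filter of 50 counts only through the 12-month-old 304Q/304Q mice, since its mean was 107.55 counts over all 20 libraries and 44.3 over the other 15. With a filter of 10 counts, which it meets without them, the adjusted p was 0.874. A two-sided exact permutation test of the 10 mice on log2 CPM, for this gene by itself, gave p = 0.0159, with 0.00794 as the smallest value it allows. Without WT/WT replicate 4 of 2 months, which had 14 reads and 1.05 CPM, the log2 fold change was 0.35.

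With age, the WT/WT groups overlapped. The log2 fold change of Onecut2 from 2 to 12 months in them was −0.27 with an SE of 0.258. In 304Q/304Q mice the older mice were 5.71-fold higher, a log2 fold change of 2.51 with an SE of 0.213, and the groups did not overlap. In that contrast, 3.6% of all genes tested were higher in every older mouse than in any younger one. The genotype effect at 12 months exceeded that at 2 months by 2.78 on the log2 scale, with an SE of 0.333. These 3 values rest on the 12-month-old mice that chose the gene and are given without a test.

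The low levels rest on few reads. The 95% exact Poisson interval of 14 reads runs from 7.65 to 23.5 reads, that is 0.572 to 1.76 CPM in the WT/WT mouse of 2 months, while that of the 229 reads of the lowest-counted 304Q/304Q mouse at 12 months runs from 200.3 to 260.7 reads. The coefficient of variation between mice was 37.2% and 32.3% in WT/WT mice at 2 and 12 months, and 12.6% and 15.96% in 304Q/304Q mice. These intervals cover counting error only.

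Per length, the mean RPKM of Onecut2 was 0.166 in WT/WT mice at 2 months, 0.246 in 304Q/304Q mice at 2 months and 0.138 in WT/WT mice at 12 months. In 12-month-old 304Q/304Q mice the mean was 1.40 RPKM. In order of level, the 12-month-old 304Q/304Q mice came first with no overlap with any other group, followed by the 304Q/304Q mice of 2 months, the WT/WT mice of 2 months and the WT/WT mice of 12 months, and neighbours among the last 3 groups overlapped. In RNA of whole tissue, a change in the number of cells of a type and a change in RNA per cell cannot be told apart.

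Onecut3, the third family member, was all but absent. It lies on the forward strand of chromosome 10 (chr10:80494835-80517276), and the 20 libraries together held 2 reads of it, both in WT/WT replicate 4 of 12 months (0.141 CPM). The other 19 mice had 0 reads, which allows up to 3 reads per library, or 0.108 to 0.264 CPM depending on its depth. No fold change is given, since all groups lay at or under this limit.

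The closest relatives of the Onecut genes by DNA-binding domain are Cux1 and Cux2, which carry several cut repeats, and Satb1, a chromatin organiser with cut-like repeats. All 3 had a mean of at least 50 counts. None of the 3 was called at 12 months, while 2 passed the adjusted p alone, both higher in 304Q/304Q mice, against 12.5% of all genes. None passed it at 2 months, when 0.0494% of all genes did.

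Satb1 had 40.6, 32.9, 33.3, 39.4 and 39.3 CPM in the WT/WT mice of 12 months. In the 304Q/304Q mice of that age it had 53.7, 57.8, 47.3, 54.0 and 49.2 CPM, all above every WT/WT mouse. Its log2 fold change at 12 months was 0.50 with an SE of 0.0722 (edgeR adjusted p = 3.47e-05), just under the limit for a call. At 2 months it was 0.10 (adjusted p = 0.931), and the genotype effect was larger at 12 than at 2 months by 0.40 with an SE of 0.101 (adjusted p = 0.0375), a difference that 1.95% of all genes showed at that limit. Between the ages, WT/WT mice showed a log2 fold change of −0.31 (adjusted p = 0.00846, where 11.5% of all genes passed) and 304Q/304Q mice one of 0.09 that did not pass (adjusted p = 0.541, where 7.26% passed). With 3 surrogate variables in edgeR, the difference of the genotype effects had an adjusted p of 0.126 and the change with age in WT/WT mice one of 0.0847.

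At 12 months, Cux1 was 155.8 ± 9.81 CPM in WT/WT and 174.0 ± 7.10 CPM in 304Q/304Q mice (n = 5, SD). Its log2 fold change of 0.16 had an SE of 0.0497 (edgeR adjusted p = 0.0347), and without a filter on low counts the adjusted p was 0.121. Cux2 was 70.7 ± 7.30 and 68.3 ± 6.21 CPM, with a log2 fold change of −0.05 (adjusted p = 0.697) that took the other sign with surrogate variables in DESeq2 and without WT/WT replicate 3 of 12 months.

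**Figure D2:**
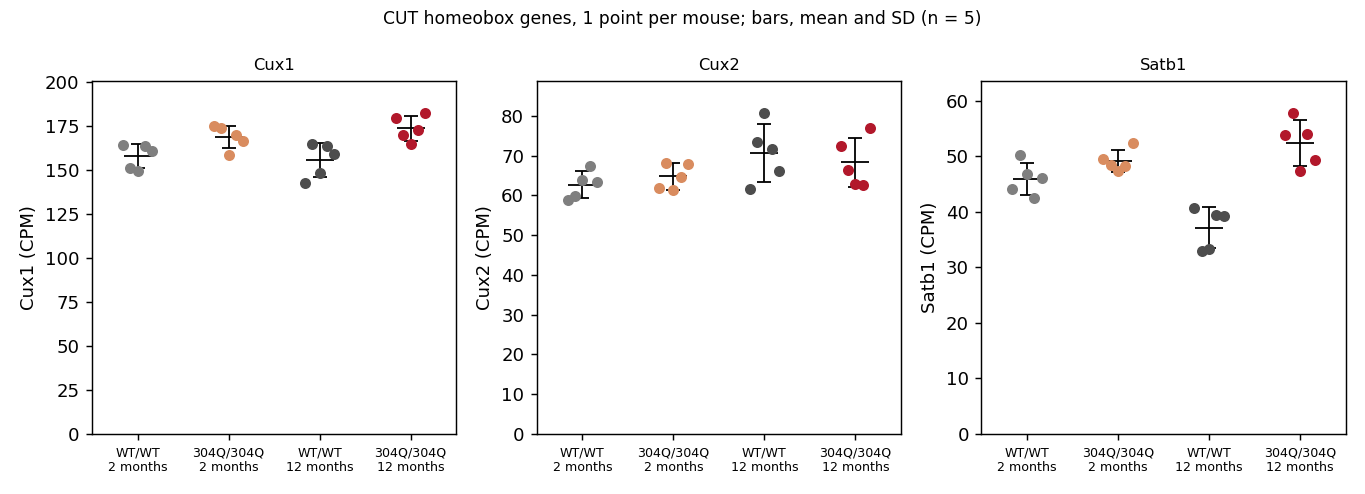
Levels (y axis, CPM from 0) of Cux1, Cux2 and Satb1 in each mouse, by genotype and age (x axis), with the mean and SD of each group of 5. Satb1 is higher in every 12-month-old 304Q/304Q mouse than in any WT/WT mouse of that age, and Cux2 overlaps.

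Onecut proteins bind a core of ATTGAT or ATCGAT, and Cux proteins bind much the same letters. Promoter windows of 300 bases around annotated starts (RefSeq, GRCm38.p6) were searched on both strands for these 2 motifs, which do not overlap each other in any window printed here. Of 32851 windows, 7.54% held ATTGAT, 0.925% held ATCGAT and 8.40% held either. The 3 relatives had 8 windows. Of these, 1 of Cux2 held ATCGAT, and 2 overlapping windows of Satb1 held the same ATTGAT, read as ATCAAT on the gene's strand.

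The first of the Satb1 windows (chr17:51812005-51812304, reverse strand) and the Cux2 window (chr5:122047776-122048075, reverse strand) are given because Satb1 moved in the same direction as Onecut2 at 12 months and Cux2 did not pass the test. The motif is in capitals, 99 bases before the annotated start in Satb1 and 72 bases before it in Cux2.
Satb1: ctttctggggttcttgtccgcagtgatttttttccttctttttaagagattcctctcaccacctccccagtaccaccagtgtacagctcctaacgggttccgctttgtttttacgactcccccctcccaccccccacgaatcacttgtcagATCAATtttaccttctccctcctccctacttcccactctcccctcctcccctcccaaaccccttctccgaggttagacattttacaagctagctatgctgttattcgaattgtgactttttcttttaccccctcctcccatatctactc
Cux2: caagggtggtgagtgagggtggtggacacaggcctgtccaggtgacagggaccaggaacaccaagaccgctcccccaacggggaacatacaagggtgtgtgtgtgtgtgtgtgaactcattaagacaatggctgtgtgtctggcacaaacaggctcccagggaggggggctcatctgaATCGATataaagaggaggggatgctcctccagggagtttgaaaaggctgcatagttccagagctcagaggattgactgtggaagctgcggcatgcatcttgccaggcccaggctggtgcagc
A match of this kind is a description of the letters and does not show binding.

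The genes beside Onecut2 on chromosome 18 had smaller log2 fold changes between the genotypes than Onecut2. The nearest tested gene before it is St8sia3, a sialyltransferase of neurons, 60409 bases away. St8sia3 had 102.3, 91.5, 84.5, 99.2 and 95.5 CPM in WT/WT mice of 12 months and 121.9, 109.3, 110.9, 114.1 and 113.2 CPM in 304Q/304Q mice. All 304Q/304Q values lay above the WT/WT values, as they did for 3.51% of all genes tested. The log2 fold change was 0.27 with an SE of 0.0604 (edgeR adjusted p = 0.00411, where 12.5% of all genes passed). An antisense gene lies over St8sia3, and whether the counting used the strand is not given in the sources used here.

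The nearest tested gene after Onecut2 is Fech, the last enzyme of haem synthesis, 51927 bases away. Fech had 55.5, 62.2, 55.4, 60.6 and 57.7 CPM in WT/WT mice of 12 months and 70.2, 64.2, 71.8, 69.1 and 69.1 CPM in 304Q/304Q mice, again with no overlap. Its log2 fold change was 0.24 with an SE of 0.0663 (adjusted p = 0.0173). Farther out, Wdr7 (0.17, adjusted p = 0.0961) and Nars, the asparaginyl-tRNA synthetase (0.06, adjusted p = 0.437), did not pass. None of the 4 neighbours was called at 12 months, where 3.09% of all genes were called and 12.5% passed the adjusted p. At 2 months none of the 4 passed it, where 0.0494% of all genes did. The neighbours of Onecut3, which are Tcf3, Uqcr11, Rexo1 and Klf16, did not pass at 12 months either.

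**Figure D3:**
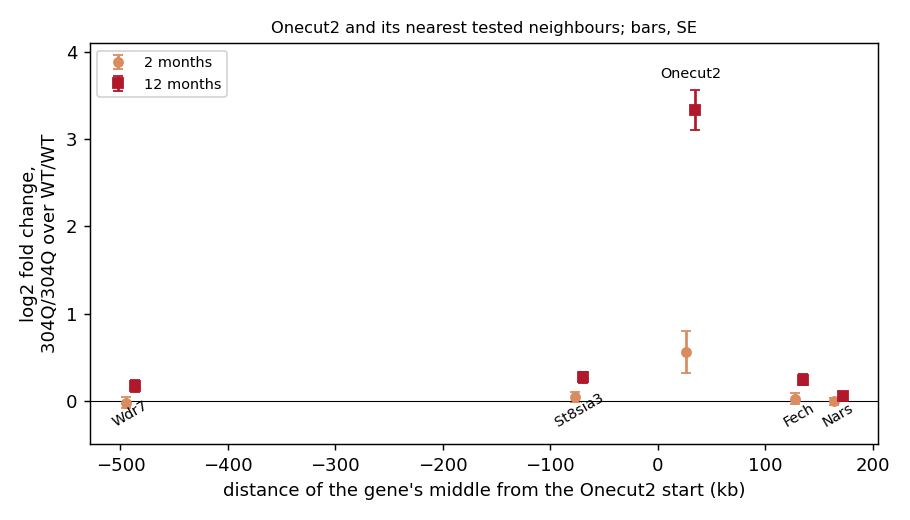
Log2 fold change of 304Q/304Q over WT/WT mice (y axis, with SE bars) for Onecut2 and the 2 nearest tested genes on each side, against the distance of each gene's middle from the Onecut2 start (x axis, kb). Onecut2 is at 3.34 at 12 months, and the largest value among its neighbours is 0.27.

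The 3′ UTR of Onecut2 is long, and the microRNA miR-9-5p is given here because its seed has more matches in that UTR than in any other tested gene. The mature sequence (RefSeq, GRCm38.p6) is shared by the genes Mir9-1 (chr3:88215613-88215635), Mir9-2 (chr13:83738821-83738843) and Mir9-3 (chr7:79505279-79505301), all on the forward strand, and the seed, bases 2 to 8, is in capitals.
mmu-miR-9-5p: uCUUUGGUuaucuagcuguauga
The match to this seed reads ACCAAAG in the messenger RNA (with T for U). The longest annotated 3′ UTR of Onecut2 has 14356 bases and holds 14 such matches. Over 11681 tested genes with an annotated 3′ UTR, 14.8% held at least 1 match, and the next gene after Onecut2 was Pou2f1 with 8. Per kilobase the density was 0.975 in Onecut2 and 0.0958 over all these genes, and 10 genes, Onecut2 among them, had a 3′ UTR at least as long. The 3′ UTRs of Satb1, Cux1 and Cux2 held 0 matches. These letters were searched after the values of Onecut2 were known.

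**Figure D4:**
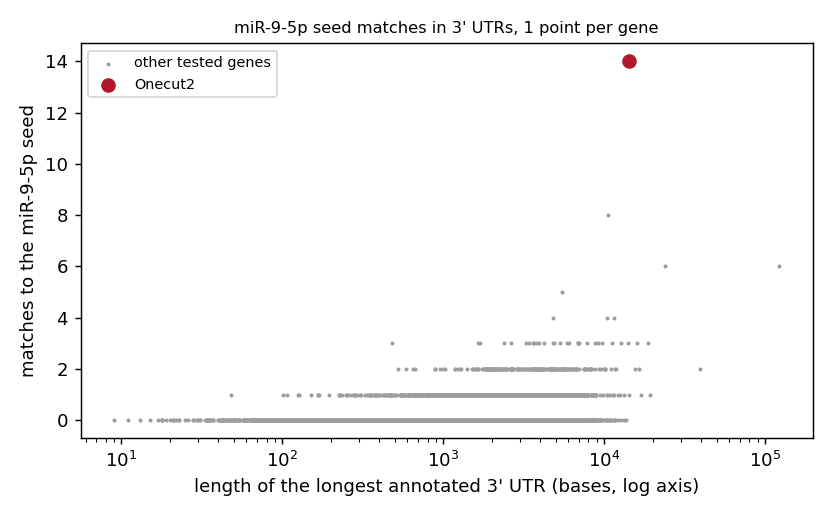
Number of matches to the miR-9-5p seed (y axis) against the length of the longest annotated 3′ UTR (x axis, bases, log axis), 1 point per gene for 11681 tested genes. Onecut2, at 14356 bases and 14 matches, lies above all others.

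Mature miR-9 was not measured in these libraries. Transcripts that carry Mir9-2 and Mir9-3 had enough reads to be tested, and none over Mir9-1 was analysed here. Mir9-3hg, the host transcript of Mir9-3, was at 12 months 38.6 ± 7.16 CPM in WT/WT and 49.3 ± 5.61 CPM in 304Q/304Q mice (n = 5, SD), with a log2 fold change of 0.35 that did not pass (edgeR adjusted p = 0.0741). Over the other settings this value lay between 0.22 (adjusted p = 0.170, surrogate variables in edgeR) and 0.37 (replicate block), it passed with that block and in DESeq2 (adjusted p = 0.0402), and without WT/WT replicate 2 of 12 months it was 0.45 (adjusted p = 0.0274). It also passed without 304Q/304Q replicate 5 of 12 months and without WT/WT replicate 4 of 2 months. C130071C03Rik, over Mir9-2, was 47.8 ± 11.7 and 62.8 ± 7.02 CPM, with a log2 fold change of 0.39 that did not pass (adjusted p = 0.0814), except without WT/WT replicate 1 of 12 months (0.55, adjusted p = 0.00603). At 2 months Mir9-3hg was at 0.29 (edgeR adjusted p = 0.860) and C130071C03Rik at 0.15 (adjusted p = 0.944). Their genotype effects differed between the ages by 0.07 and 0.24, which did not pass (adjusted p = 0.885 and 0.585). With age in WT/WT mice, C130071C03Rik changed by −0.46 (adjusted p = 0.0455, where 11.5% of all genes passed). Among the other genes, the median log2 fold change at 12 months was −0.01 for the 9953 with 0 matches, 0.02 for the 1473 with 1, 0.03 for the 217 with 2 and 0.01 for the 37 with 3 or more. Called higher were 1.12% of the genes with 0 matches, 1.97% with 1, 1.84% with 2 and 0 of the 37 with 3 or more. Called lower were 1.85%, 1.43% and 0.92% of those with 0, 1 and 2 matches, and 1 of the 37. Over all 11680 of these genes, 1.23% were called higher and 1.78% lower. The median 3′ UTR length rose over these groups too, from 1164 to 6036 bases, and its part was not tested.

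Genes tied to the Onecut factors in other settings were taken from fixed lists. Of 13 genes of liver and pancreas linked to Onecut1, 11 were in the table and 2 had a mean of at least 50 counts, Sox9 and Ttr, and neither was called at either age. Ttr, which the choroid plexus also makes in large amounts, ran over a wide range in both genotypes (670.4 ± 842.6 and 554.8 ± 753.4 CPM at 12 months, SD, n = 5). The other 9, among them Foxa1, Foxa2, Hnf4a, Neurog3, Pfkfb1, G6pc and Pck1, had a mean of at most 7.90 counts per library.

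Of 21 transcription factors that act beside the Onecut genes in developing neurons, 11 were tested and 0 were called at 12 months, where 3.09% of all genes were called. The median log2 fold change of the 11 was −0.02, against −0.00386 over all genes. Those that passed the adjusted p alone were both lower: Lhx1 (84.9 ± 6.79 against 71.1 ± 4.54 CPM, SD, n = 5, log2 fold change −0.26, edgeR adjusted p = 0.0159) and Lhx5 (19.2 ± 2.72 against 13.9 ± 2.12 CPM, log2 fold change −0.46, adjusted p = 0.0205). Both are LIM homeobox genes of Purkinje cells and other GABAergic neurons. Of all genes tested, 12.5% passed the adjusted p at 12 months. Isl1, Isl2, Pou4f1, Pou4f2, Phox2a and Ptf1a, factors of early sensory, motor and inhibitory neurons, had a mean of at most 0.90 counts per library, and Nkx6-1, Lmx1a and Lmx1b one of at most 16.75.

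Of 8 genes linked to ONECUT2 in tumours, all were tested and 1 was called at 12 months, where 3.09% of all genes were called. This was Rest, a repressor of neuronal genes, with 6.43, 8.09, 5.34, 7.97 and 3.20 CPM in WT/WT and 10.6, 10.8, 10.2, 10.9 and 8.26 CPM in 304Q/304Q mice. The lowest 304Q/304Q mouse lay just above the highest WT/WT mouse, and the log2 fold change was 0.71 with an SE of 0.193 (edgeR adjusted p = 0.0170). With 3 surrogate variables the call was lost (adjusted p = 0.157 in edgeR and 0.135 in DESeq2), as it was without WT/WT replicate 3 of 12 months (adjusted p = 0.0510). The other 7, among them Chga, Hif1a, Peg10, Smad3 and Syp, did not pass.

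The genes whose profile over the 20 mice was most like that of Onecut2 were named by the root mean square distance of profiles scaled to a mean of 0 and an SD of 1. The 5 closest of 12152 genes were Synpr, a synaptic vesicle protein, at 0.329, Sema5a, an axon guidance molecule, at 0.408, Utrn, the relative of dystrophin, at 0.431, Celf4, an RNA-binding protein of neurons, at 0.444 and Hp1bp3, a relative of linker histones, at 0.477. The median distance over all genes was 1.41. Their log2 fold changes at 12 months were 0.88, 0.56, 0.52, 0.30 and 0.19, so that none came near the size of the Onecut2 difference. Celf4 lies on chromosome 18 too, at chr18:25477632-25754157.

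The 3 genes closest to the mirror image of the Onecut2 profile were Sbk1, a kinase, at a distance of 0.277, Sparc, a matrix protein, at 0.284 and Garnl3, a Rap GTPase regulator, at 0.305. Their log2 fold changes at 12 months were −0.51, −0.57 and −0.52. Sparc had a mean of 996.0 ± 61.6 CPM in WT/WT and 672.3 ± 32.0 CPM in 304Q/304Q mice (SD, n = 5). All 8 were picked for their likeness on these same mice and carry no test. Of their promoter windows, 8 were given for 6 of the genes, and 0 held ATTGAT or ATCGAT. Synpr, Sema5a, Utrn, Celf4 and Garnl3 have other annotated genes over them.

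Markers of the cells in a cerebellar dissection moved with the same groups, and their part in the level of Onecut2 was not tested. Of 14 Purkinje cell genes, 11 passed the adjusted p at 12 months, all lower in 304Q/304Q mice, where 12.5% of all genes passed it. Of these 5 were called, where 1.83% of all genes were called lower, with Pcp4 (log2 fold change −0.65), Pcp2 (−0.59), Rgs8 (−0.53) and Homer3 (−0.52) as the largest. With surrogate variables in DESeq2 these 4 stood at −0.48, −0.48, −0.47 and −0.49 and were no longer called, the first 3 of them in edgeR with these variables too, as was so for Rgs8 without 304Q/304Q replicate 3 of 12 months (−0.499) and Homer3 without WT/WT replicate 3 of 12 months (−0.46). Their summed RPKM ran from 1507 to 1674 in WT/WT and from 1212 to 1280 in 304Q/304Q mice. Of 10 oligodendrocyte genes, 5 passed, all lower, and 3 were called, among them Mobp (−0.80) and Mal (−0.61), with summed RPKM of 852.3 to 966.9 and 574.6 to 785.6. Of 8 astrocyte and Bergmann glia genes, Gdf10 (−0.66) and Aldh1l1 (−0.52, and −0.49 without 304Q/304Q replicate 1 of 12 months) were called lower, with sums of 751.6 to 802.9 and 708.7 to 758.1. Of these 8 genes, 5 had a negative and 3 a positive log2 fold change (median −0.09), and only the 2 called ones passed the adjusted p. Of 8 tested microglia genes, Cd68 (0.73) was called higher, a call lost with surrogate variables (0.58 in both tools, adjusted p = 0.0909 in edgeR), with sums of 83.9 to 99.1 and 86.5 to 123.7. Of all genes tested, 1.26% were called higher.

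Among the neurons of the granular layer, Calb2, listed for granule and unipolar brush cells, was called higher (0.53, and 0.49 without WT/WT replicate 1 of 12 months) and Eomes, a marker of unipolar brush cells, was called lower (−2.06). At 12 months, 1.26% of all genes were called higher and 1.83% lower. The granule cell sums were 1444 to 1505 and 1522 to 1657 RPKM, and those of unipolar brush cells 312.6 to 349.4 and 414.5 to 444.8 RPKM. Calb2 is abundant and counts in both sums, while 6 of 10 granule cell genes had a negative log2 fold change (median −0.03) and 2 of 5 tested unipolar brush cell genes passed as lower. Grm2 was the 1 called of 4 tested Golgi cell genes (−0.52, and −0.47 to −0.50 with no call with surrogate variables and without 304Q/304Q replicate 1 or 2 or WT/WT replicate 3 of 12 months, sums of 44.7 to 48.2 and 34.2 to 39.3 RPKM). None of 8 genes of molecular layer interneurons and of 4 tested genes of cerebellar nuclei was called, with sums of 889.7 to 1108 and 702.5 to 775.7 RPKM, and of 59.7 to 69.7 and 43.9 to 59.0 RPKM.

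Markers of tissue beside the cerebellum were summed too. Of 20 brainstem and midbrain markers, where Onecut2 is made in the embryo, 19 were in the table and 1 was tested, Th, the first enzyme of catecholamine synthesis, which was called lower at 12 months (18.7 ± 2.69 against 11.0 ± 1.91 CPM, SD, n = 5, log2 fold change −0.76, edgeR adjusted p = 0.000579). The summed RPKM of this list was 7.97 to 10.9 in WT/WT and 4.50 to 7.33 in 304Q/304Q mice of 12 months, with 2 markers at 0 in all mice of each group. Th counts in this sum and was the only marker in it with a mean of at least 50 counts, so the sum is not separate from Th. The amount of such tissue in the dissections was not tested. Choroid plexus markers ranged from 9.72 to 1726 RPKM in WT/WT and from 6.35 to 1228 RPKM in 304Q/304Q mice, overlapping widely, and 0 of the 3 tested were called. At 2 months, 0 genes of any list were called, where 0.00823% of all genes were. At that age Mal (log2 fold change −0.39, edgeR adjusted p = 0.00668) and Calb2 (0.37, adjusted p = 0.0148) passed the adjusted p, where 0.0494% of all genes did.

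**Figure D5:**
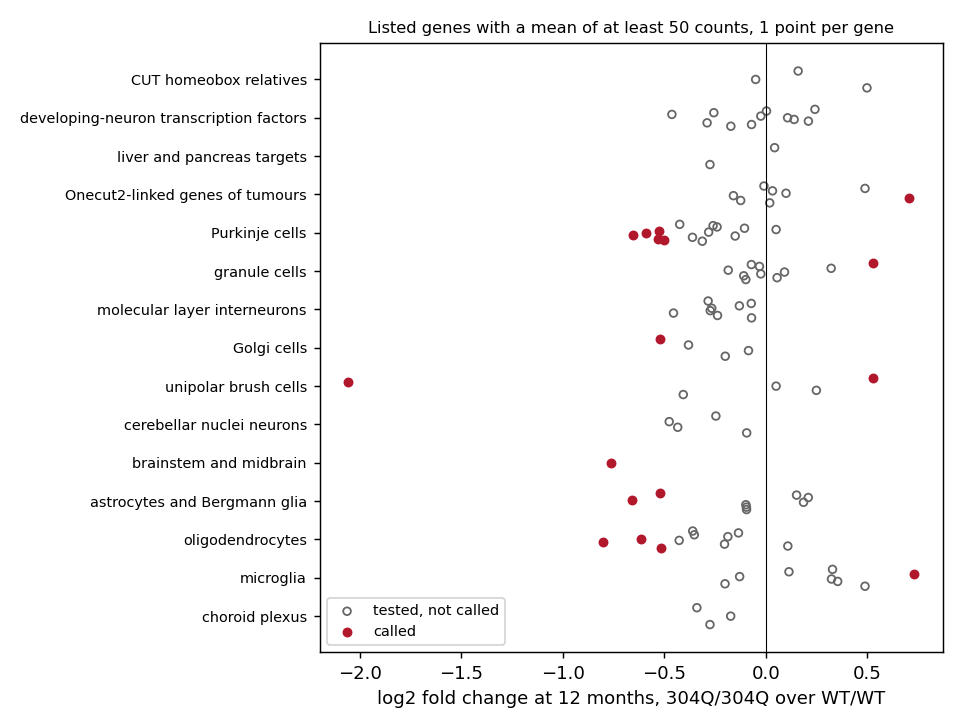
Log2 fold change at 12 months of 304Q/304Q over WT/WT mice (x axis) for each tested gene of the 15 gene lists (y axis), with called genes filled. The 5 called Purkinje cell genes lie left of 0, and the CUT homeobox relatives reach 0.50 with none called.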

How the data were processed

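Cerebellar mRNA of 20 mice, 5 in each of 4 groups of genotype and age, was sequenced from stranded libraries. With STAR (GRCm38) and Rsubread, the authors made the deposited whole-number counts per gene, which are not normalized. Groups were taken from the sample labels. Replicates are separate mice, and all pairs differed by more than sampling noise (chi-square over its degrees of freedom at least 4.43).

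Counts were scaled by TMM and fitted with edgeR 4.0.16 (R 4.3.3) in 1 model with 4 group terms, after a filter that kept the 12153 genes averaging 50 counts or more. P-values were adjusted by the Benjamini-Hochberg method. Single values were compared by two-sided exact permutation tests. Log2 CPM used a prior count of 2. Alternatives were DESeq2 1.42.0, 3 surrogate variables from sva 3.50.0, other filters and size factors, only the groups compared, the replicate block and each library left out. The fits were tested on simulated data. GENCODE M21 matched 29138 of the gene identifiers and gave symbols, exons and 3′ UTRs, and RefSeq the promoters and miR-9-5p.

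Genes named were the members, the called genes of each list (at most 4 by size), the 2 nearest tested genes on each side of a member, and the 5 profiles most like Onecut2 with 3 mirror images. The members and lists were chosen with earlier results of these data known. The miR-9 genes and Pou2f1 were named after their values were seen. Some genes are left out of the text.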

Additional observations from a re-analysis of the deposited data

Results flagged for a closer look

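In groups of 5 mice, 4 of 49 groups over 13 genes held a mouse far from the others, where chance gives about 1 in 20. Onecut3 was at 0.141 CPM in 1 WT/WT mouse of 12 months and at 0 in the other 4, a gap that takes up 1.0 of the range and rests on 2 reads. St8sia3 was lowest in 1 of the 304Q/304Q mice of 2 months at 87.1 CPM (gap over range 0.803). C130071C03Rik was highest in 1 WT/WT mouse of 12 months at 67.8 CPM (0.728). Rest was lowest in 1 of the 304Q/304Q mice of 12 months at 8.26 CPM (0.738), which brings it toward the WT/WT mice.

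The genotype effect differed between the ages for Onecut2, by 2.78 on the log2 scale, a value that shares its 12-month-old mice with the contrast that chose the gene. For Satb1 it differed by 0.40 (edgeR adjusted p = 0.0375), and this did not pass in 4 of 7 other settings, where the adjusted p was 0.0582 to 0.126.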

How the results depend on the processing

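The Onecut2 values that rest on 12-month-old mice are given as sizes only, since these mice chose the gene. Its log2 fold change at 12 months lay between 3.32 and 3.35 over 8 settings and between 3.16 and 3.43 when 1 library was left out. At 2 months it did not pass in any of the 8 settings and lay between 0.56 and 0.69 (adjusted p 0.168 to 0.908) and between 0.35 and 0.68 with a library left out. The change with age in WT/WT mice lay between −0.28 and −0.07 and between −0.47 and −0.09, and that in 304Q/304Q mice between 2.51 and 2.57 and between 2.44 and 2.58. The interaction lay between 2.64 and 2.79 and between 2.60 and 2.99. Mice that share a replicate number were correlated on log2 CPM with the group means removed. Over the 6 pairs of groups, r ran from −0.323 to 0.551, the highest between WT/WT mice of 2 and 12 months. The lowest was negative in each pair of groups. This does not settle whether the mice were paired. With the replicate block the Onecut2 values were 3.35 at 12 months and 0.57 at 2 months (adjusted p = 0.82). For Onecut3, with 2 reads over all 20 libraries, no fold change is given.

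Of 1346 values of other genes, 1294 kept direction and call, 35 lost and 14 gained a call and 3 turned sign without being called: Cux2 at 12 months (0.00684 with surrogate variables in DESeq2, and −0.10 to 0.00256 when libraries were dropped in turn, with the top value lacking WT/WT replicate 3) and Cux1 with age in WT/WT mice (−0.0425 to 0.00848, with the top value lacking WT/WT replicate 1 of 12 months). Satb1 at 12 months passed 0.5 in 5 of 8 settings (0.439 to 0.505) and in 8 of 20 with a library left out. The cause was not tested. The count of genes called at 2 months was 1, and 10 with surrogate variables in DESeq2. With age in WT/WT mice 314 genes were called, 185 with surrogate variables in edgeR and 595 without WT/WT replicate 1 of 12 months. For the interaction 114 were called, 173 by DESeq2, and 75 to 265 with a library left out. The 2-month comparison of Onecut2 is limited by its low counts.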
